A study of Mus musculus with 9 samples.

Results

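The dorsolateral nucleus (DL) is a small group of motor neurons in the lumbosacral spinal cord, and its transcripts were set against those of motor neurons from the lumbar cord at the fifth segment (L5) and from the oculomotor nucleus of the midbrain (OMN). The members were 3 DL arrays of 9 arrays in all, taken by their sample labels, with 3 L5 and 3 OMN arrays on the other side. Each of 18193 named genes was compared between DL and the mean of the L5 and OMN pools, with both pools given the same weight. A gene was also counted as different from both pools when it passed the test against L5 and against OMN in the same direction, which 172 genes did.

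All 3 pools came from wild-type male C57BL/6J mice at postnatal day 7 that had received no treatment. DL neurons were cut by laser from sections of the sixth lumbar level, L5 neurons from the fifth and OMN neurons from the midbrain, about 200 of each from each of 3 animals per the labels' protocols. Affymetrix whole-genome mouse arrays gave 1 intensity per probe set. For telling motor neurons apart in the frozen sections the labels name a cresyl violet stain and no marker, and glia and nerve endings that touch a cell body are cut out with it. The labels number the arrays of each pool 1 to 3 but do not say which animal a number stands for.

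In rodents the dorsolateral nucleus supplies striated muscles of the pelvic floor, among them the external urethral sphincter, and is the counterpart of part of Onuf's nucleus in humans. These neurons lie close to the autonomic neurons of the sacral cord and work with them in bladder control. In amyotrophic lateral sclerosis (ALS), limb motor neurons such as those of L5 are lost, while sphincter and eye motor neurons are relatively spared. A property of DL that is shared by neither of the other pools was what the comparison with both pools looked for.

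As motor neurons, the DL samples carried high levels of 3 genes of the cholinergic motor neuron. The vesicular acetylcholine transporter gene Slc18a3 had intensities of 1657, 2555.5 and 774 in DL, against 2294, 3574 and 2616.5 in L5 and 2755, 1997 and 2682 in OMN. The choline transporter gene Slc5a7 had 2864, 3351 and 3475 in DL, against 4979, 3826.5 and 3415 in L5 and 4188, 4191.5 and 3942 in OMN, and the neurofilament-like gene Prph 9121, 9228 and 7529.5 in DL, against 10376, 10280.0 and 10114 in L5 and 4571, 4796 and 5166.5 in OMN. Neither Slc18a3 nor Slc5a7 passed the test between DL and the mean of the other pools (adjusted p = 0.269 and 0.403). Of 14 measured genes of motor neuron identity and cholinergic function, 2 were higher than the mean (Isl1 and Mnx1) and 1 lower (Lhx4). Over all genes the shares were 1.53% higher and 1.82% lower. The Mnx1 call was lost when any of 8 arrays was left out (adjusted p up to 0.133 in limma). The array's probe set for Chat, which makes acetylcholine, lay between 1.2 and 24.5 on every array of all 3 pools, around the noise level of 18.3, and so carried no information on any pool.

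The DL arrays stood apart in ways that bear on every result. For Gapdh, the signal of the 3′ control probe set divided by that of the 5′ one, a sign of RNA that was degraded or amplified unevenly, was 3.27, 2.44 and 3.75 on DL arrays 1, 2 and 3 and 2.33 to 2.67 on the other 6. The median intensity was 26.4 to 29.7 in DL, against 32.0 to 34.3 in L5 and 33.6 to 35.5 in OMN. Replicates differed more in DL, with a median SD of log2 values of 0.294 over 7120 bright genes, against 0.204 in L5 and 0.171 in OMN, while the fit uses 1 spread for all pools. DL array 2, whose Gapdh ratio was among those of the other pools, by itself lay above all 6 other arrays in 252 of the 279 genes called higher and below them in 298 of the 332 called lower, as a description of genes it had helped to choose. Over all genes it lay above all 6 in 17.8% and below them in 22.8%. With arrays 1 and 3 left out, which leaves 1 DL array, no gene was called by limma, and 2968 had an unadjusted p under 0.05.

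DL differed from the mean of the other pools in 611 of 18193 genes (3.36%). Of these, 279 were higher in DL (1.53%) and 332 lower (1.82%) at an adjusted p under 0.05 in limma, on the scale log2(intensity + 16). All log2 differences below are on that scale and are DL minus the other pool or the mean of both, with their SE from 3 arrays per pool. The counts of each gene list below are to be read beside the shares over all genes, 1.53% higher and 1.82% lower. Among the 279 higher genes, 86 were called against each of the other pools, 81 against L5 alone, 95 against OMN alone and 17 against neither. Among the 332 lower genes, 86 were called against each, 87 against L5 alone, 119 against OMN alone and 40 against neither. In 12 of the 279 higher and 9 of the 332 lower genes the differences from L5 and OMN had opposite signs. The 172 genes that differed from both pools in the same direction made up 0.945% of the genes tested, 0.473% in each direction, and both comparisons share the DL arrays. By themselves, the comparison with L5 called 1.27% of all genes higher in DL and 1.25% lower, and that with OMN 1.36% and 1.64%. Between L5 and OMN, 2.15% of genes differed. Across all genes the median difference was -0.06. When each array was centred on its median intensity, 389 genes were called higher and 243 lower, so that 61.6% of the calls were higher in place of 45.7%, as were 114 of 178 genes different from both pools in place of 86 of 172. With quantile normalization, 61.3% of the genes different from both pools were higher.

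Genes higher in DL than in both pools ran from dim to bright, with mean DL intensities of 29.0 to 4787 and a median of 577. In 6 of these 86 genes every L5 and OMN array was at or under the noise level. In 10 of the 86 genes lower than both pools, every DL array was at or under it. The plane of both differences shows these genes in its upper right and lower left corners. In all 86 higher genes the 3 DL arrays lay above the 6 others, and in all 86 lower ones below them. Over all genes the shares were 3.83% and 4.85%. Where single genes below are said not to overlap, this describes genes chosen on the same arrays and is no further support. In samples of this kind, fewer cells of a type and less RNA per cell cannot be told apart. Summed markers of oligodendrocytes, inhibitory interneurons and vascular cells, given below, were higher on all DL arrays than on any other array, and their part in the gene differences was not tested.

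**Figure D1:**
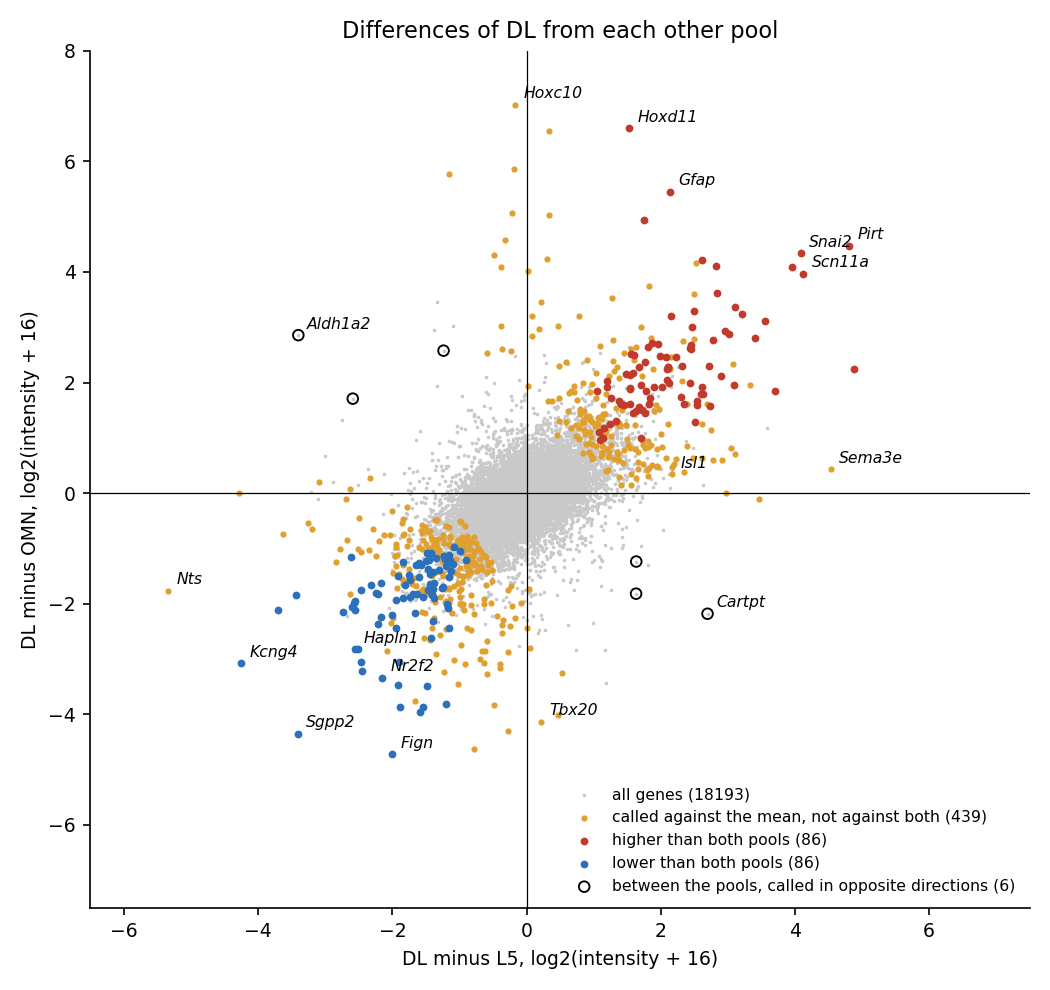
Each point is 1 of 18193 genes, placed by its log2 difference of DL minus L5 (horizontal axis) and DL minus OMN (vertical axis) on log2(intensity + 16). The 86 red genes were higher in DL than in both pools and the 86 blue genes lower, 439 orange genes were called against the mean but not against both, and 6 circled genes lay between L5 and OMN.

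Leaving out each of the 9 arrays in turn showed which calls hung on a single array. Other settings are given at the end, where single genes were followed only in their calls against the mean. Of the genes listed next, Kcna6 lost that call in a setting with more than 1 DL array. Cbln4, Cadps2, Rtn4rl1, Csta1, Smr2, Lix1, Plch1 and Slc29a2 were not followed there. Calls against both pools were only counted there, and fits of each pair of pools alone gave 11 such genes. Under every omission of 1 array 115 of the 611 calls against the mean remained, 71 higher and 44 lower. Of the 172 calls against both pools 24 remained, 19 higher and 5 lower. Each of these fits has fewer residual degrees of freedom. The higher genes kept against both pools were Scn11a, Scn7a, Prrxl1, Chrna3, Kcnv1, Kcna6, Bdnf, Ngfr, Gcnt2, Mpped2, Hhex, Tent5a, Ccdc172, Cbln4, Cadps2, Rtn4rl1, Csta1, Smr2 and Lix1, and the lower ones Kcng4, Hapln1, Sgpp2, Plch1 and Slc29a2. Every other gene described below as higher or lower than both pools lost that call when at least 1 array was left out. Calls against the mean that were lost in this way without an array being named below were those of Aldh1a7 and Pvalb (without DL array 1 or 3), Sst (DL array 1 or 2 or OMN array 3), Tshz2 (DL array 1 or 3 or OMN array 2), En2, Fbn2 and Slc32a1 (DL array 1), and, without each of 6 to 9 arrays, Adm, Crnde, Ebf1, Foxp1, Gabre, Hoxa11, Hsd17b2, Hspa1b, Irx3, Mmp2, Nkx6-1, Otx1, Otx2, Scn4b, Slc7a10, Tbx20 and Wwox.

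Several genes best known from sensory neurons were higher in DL. Of 19 measured genes on a list of sensory neuron genes, 7 were higher and none lower, with a median log2 difference of 0.41 against -0.06 for all genes. They were the sodium channel genes Scn7a, Scn9a and Scn11a, Pirt, Prrxl1, Tac1 and Piezo2, and all but Scn9a were also higher than each pool by itself. All 3 DL arrays lay above all 6 others for 8 of the 19 genes, as they did for 3.83% of all genes, and for none of the 19 did they lie below, against 4.85%. The list's counts were the same with quantile normalization and with centred arrays. The list was chosen with earlier results of these data known, so its counts are a description and not a test.

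Scn11a encodes Nav1.9, a sodium channel that opens near the resting potential and is best known from nociceptors. Its intensities were 609, 714 and 503 in DL, against 26.4, 14.4 and 18.8 in L5 and 49.3, 19.4 and 10.6 in OMN. The DL arrays were all more than 10 times as bright as any other array, whereas most L5 and OMN arrays lay near the noise level. The difference from the mean was 4.05 ± 0.24 (adjusted p = 0.000969).

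Pirt, a membrane protein that binds phosphoinositides and tunes TRP channels in sensory neurons, had 670.3, 629.5 and 1348 in DL, against 5.4, 26.1 and 14.8 in L5 and 94.7, 2.9 and 10.2 in OMN. It was the gene with the highest difference of all those called, 4.64 ± 0.57 (adjusted p = 0.00928), although 1 OMN array stood above the other 2 and the call against both pools was lost when any of 7 arrays was left out (adjusted p up to 0.0910). Prrxl1, a paired homeodomain factor also called Drgx that is needed by the neurons of the pain pathway, had 383, 334 and 411 in DL, against 30.7, 35.5 and 90.8 in L5 and 1.7, 1.7 and 14.1 in OMN. All OMN arrays were at or under noise, so that DL was at least 20.5-fold higher than OMN, and it was 2.62 ± 0.24 above L5. Piezo2, the mechanically gated channel of touch and of bladder stretch sensing, had 946, 812 and 603 in DL, against 58.5, 128 and 114 in L5 and 29.8, 13.1 and 55 in OMN. The groups did not overlap, with a difference of 3.47 ± 0.35 (adjusted p = 0.00457).

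Tac1 encodes the precursor of substance P and neurokinin A. It had 2408, 2033 and 2501.5 in DL, against 347, 263 and 219 in L5 and 195, 339 and 404 in OMN. The lowest DL array was about 5 times the brightest of the others, and the difference from the mean was 2.94 ± 0.27 (adjusted p = 0.00331). A second, dimmer probe set of Tac1 did not have the same sign. The call against both pools was lost without L5 array 2 (adjusted p = 0.0560).

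Of the other sodium channels, Scn7a encodes Nax, a sodium-sensing relative of the voltage-gated channels. It had 856, 471 and 507 in DL, against 9.7, 1.9 and 3.1 in L5 and 103.5, 104 and 131 in OMN. DL was at least 32.2-fold higher than L5, where every array was at noise, and 2.24 ± 0.24 above OMN. Scn9a, its direct neighbour in the genome, encodes Nav1.7, a threshold channel of sensory and sympathetic neurons. It had 595.5, 1445 and 1207 in DL, against 290.3, 272 and 205 in L5 and 394, 273 and 317 in OMN, and was higher than the mean by 1.77 ± 0.31 (adjusted p = 0.029), a call lost when any array but DL array 1 was left out (adjusted p up to 0.111).

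Some other genes of pain-sensing ganglion cells were at background in DL. Scn10a, which encodes Nav1.8, and the heat and cold receptor genes Trpv1 and Trpm8 lay at or under the noise level on every DL array. The ATP receptor gene P2rx3 had 51.9, 43.1 and 67.4 in DL, against 66.1, 14 and 19 in L5 and 0.8, 17.8 and 8.6 in OMN, and its difference of 1.09 ± 0.38 did not pass the test (adjusted p = 0.191). Only 1 of its 3 probe sets had that sign. The summed intensity of 6 markers of Schwann cells and dorsal root ganglia was 831 to 1525 in DL, against 2023 to 2344 in L5 and 473 to 633 in OMN. Most of the DL and L5 sums came from Pmp22, with 826, 720 and 1077 in DL and 1863, 2202 and 2115 in L5. Of the 6 markers, 5 had a positive difference from the mean, with a median of 0.35 against -0.06 for all genes. None was called against the mean, and 2 had an unadjusted p under 0.05 in limma.

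**Figure D2:**
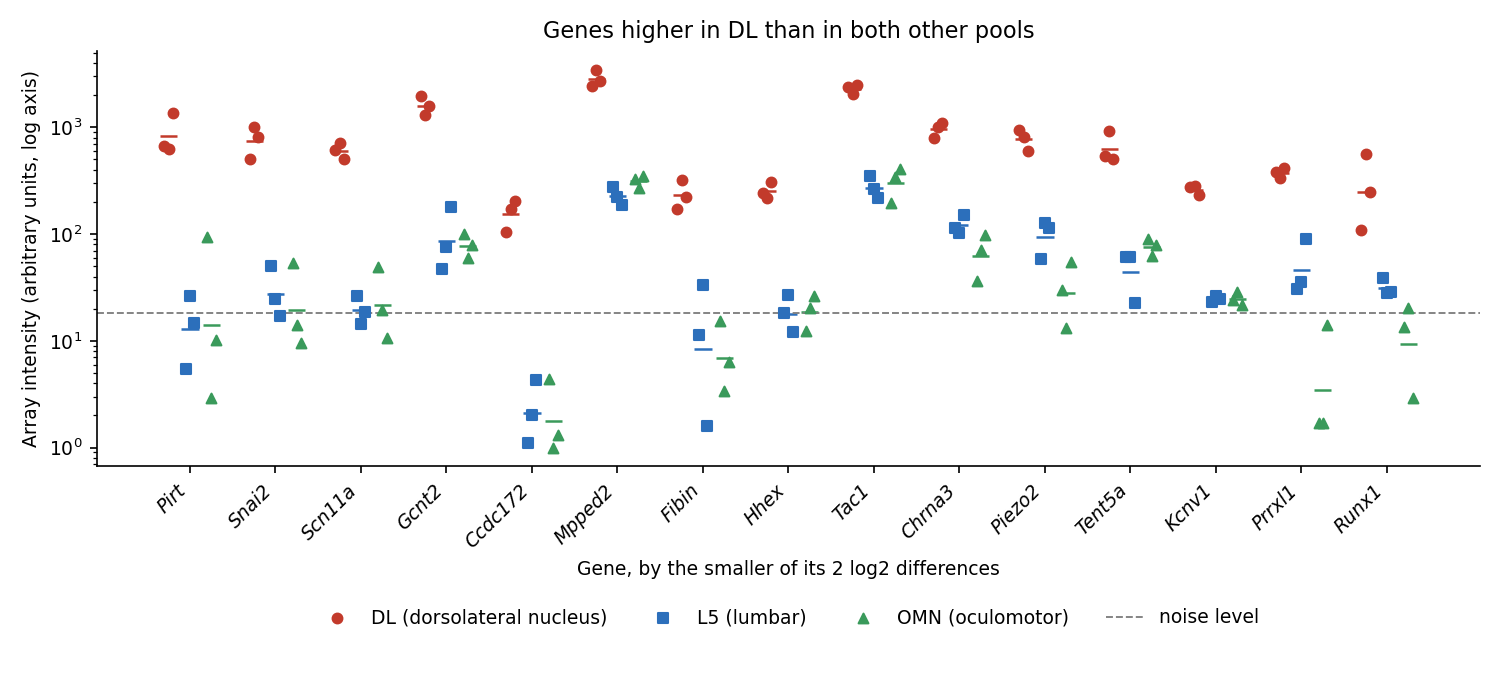
Intensities of 15 genes higher in DL than in both pools (log axis), ordered by the smaller of the log2 differences from L5 and OMN, with 3 arrays per pool, a bar at each pool's geometric mean and the noise level of 18.3 as a dashed line. In every gene shown, all 3 DL arrays lie above all 6 L5 and OMN arrays, as they do in 3.83% of all genes. The genes were chosen on these same arrays.

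The stretches upstream of 4 of these genes are shown because 2 encode the channel and the peptide described above and 2 the nicotinic receptor subunits described next. They are the 250 bases before the annotated start, taken from RefSeq on build GRCm38.p6. Scn11a was read from chr9:119825457-119825706 on the minus strand, Tac1 from chr6:7554811-7555060 on the plus strand, Chrna3 from chr9:55026563-55026812 on the minus strand and Chrnb4 from chr9:55048545-55048794 on the minus strand. Matches to 3 motifs, searched on both strands, are in capitals.
Scn11a: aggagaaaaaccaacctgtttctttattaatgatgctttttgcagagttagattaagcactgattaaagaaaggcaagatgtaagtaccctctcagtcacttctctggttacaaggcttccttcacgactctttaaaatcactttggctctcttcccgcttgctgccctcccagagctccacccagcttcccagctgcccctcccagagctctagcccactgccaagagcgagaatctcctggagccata
Tac1: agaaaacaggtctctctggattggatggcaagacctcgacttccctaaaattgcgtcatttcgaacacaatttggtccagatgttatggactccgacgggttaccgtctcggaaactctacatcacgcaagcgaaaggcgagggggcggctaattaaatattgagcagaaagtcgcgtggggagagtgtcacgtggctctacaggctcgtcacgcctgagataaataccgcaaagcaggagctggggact
Chrna3: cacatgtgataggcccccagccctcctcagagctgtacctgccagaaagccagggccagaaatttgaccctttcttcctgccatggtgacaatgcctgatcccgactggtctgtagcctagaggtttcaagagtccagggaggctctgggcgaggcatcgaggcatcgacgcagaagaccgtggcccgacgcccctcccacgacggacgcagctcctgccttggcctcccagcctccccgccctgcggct
Chrnb4: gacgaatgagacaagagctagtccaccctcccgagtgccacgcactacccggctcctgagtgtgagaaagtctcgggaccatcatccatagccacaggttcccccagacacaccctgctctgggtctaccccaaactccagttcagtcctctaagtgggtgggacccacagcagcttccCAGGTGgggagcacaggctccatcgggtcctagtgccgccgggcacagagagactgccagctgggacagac

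The motifs stood for factors whose own genes differed in DL. They were TGTGGT, bound by RUNX factors, CAGGTG, an E-box bound by the Snail family, and AGGTCA, a site of nuclear receptors such as NR2F. Chrnb4 held 1 CAGGTG, and the other stretches held none of the 3 in this window. Upstream stretches were at hand for 67 of the 86 genes higher than both pools, 62 of the 86 lower ones and 14452 measured genes. CAGGTG or its complement was found in 18 of the 67 (26.9%), 13 of the 62 (21%) and 16.9% of all. TGTGGT was found in 7 (10.4%), 5 (8.06%) and 11.7%, and AGGTCA in 7 (10.4%), 10 (16.1%) and 12.2%. These shares describe letters, not binding.

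Subunits of the ganglionic nicotinic acetylcholine receptor were also higher in DL. Chrna3, Chrna5 and Chrnb4 lie side by side in the genome and encode the alpha3, alpha5 and beta4 subunits that carry fast transmission in autonomic ganglia. Chrna3 had 797, 1012 and 1108 in DL, against 114, 103 and 151 in L5 and 36, 70.8 and 97.4 in OMN. No DL array came near any other, and the difference of 3.22 ± 0.20 (adjusted p = 0.000969) held against both pools under every omission of 1 array. Chrnb4 was dimmer, at 44.7, 98.3 and 118 in DL, against 2.8, 3.6 and 2.9 in L5 and 22.5, 10.9 and 15.2 in OMN, with a difference of 1.98 ± 0.27 (adjusted p = 0.0128) that was lost without DL array 2 or 3 (adjusted p up to 0.0599). Chrna5 had 52.7, 45.9 and 61.6 in DL, against 38, 23 and 63.5 in L5 and 4.9, 4.6 and 7.8 in OMN, which overlapped between DL and L5, and was 1.00 ± 0.19 (adjusted p = 0.0363) above the mean, a call lost without any array but L5 array 3 (adjusted p up to 0.127). Chrna5 was named after its values were seen.

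Most other genes of autonomic neurons did not pass the test. Of 14 genes measured, Chrna3 and Chrnb4 were higher and 1, Fbn2, was lower in DL, with a median difference of 0.36. Fbn2, which encodes the microfibril protein fibrillin 2, was at noise on all 3 DL arrays and had 55.4, 39.5 and 41.6 in L5 and 92.5, 48.2 and 32.2 in OMN. The T-box factor gene Tbx3 had 55.9, 25.4 and 50.2 in DL, against 6.9, 4.9 and 3.5 in L5 and 12.9, 22.1 and 28.3 in OMN, a difference of 1.07 ± 0.23 that just missed the threshold (adjusted p = 0.0577). Only 2 of its 5 probe sets had that sign. With quantile normalization or centred arrays 3 genes of the list were higher.

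Neuropeptide genes changed in both directions in DL. Of 35 measured, 3 were higher (Tac1, Gal and Sst) and 3 lower (Nts, Uts2 and Adm), and with centred arrays 5 were higher and 3 lower. The galanin gene Gal had 159.7, 186 and 175 in DL, against 45.1, 16.9 and 25.3 in L5 and 29.6, 26.8 and 39.1 in OMN. DL was clear of both other pools, by 2.05 ± 0.22 (adjusted p = 0.0058). Nts, which encodes neurotensin, was the most reduced peptide gene, with 29.1, 100.4 and 93 in DL, against 4232, 3419 and 2587 in L5 and 271, 289 and 239.5 in OMN. L5 was far above OMN and OMN above DL, and the call was against L5 and against the mean. The difference from the mean was -3.55 ± 0.32 (adjusted p = 0.00328), and that from OMN was -1.76 ± 0.37 (adjusted p = 0.0582). Uts2, the gene of the vasoactive peptide urotensin II, had 3.3, 5.7 and 24.3 in DL, against 282, 219.7 and 508 in L5 and 124.5, 106 and 64.8 in OMN, a difference of -2.91 ± 0.33 (adjusted p = 0.00747). Its call against both pools was lost without any of 8 arrays (adjusted p up to 0.162).

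Receptors for peptides showed the same mixture. Of 50 measured genes, 4 were higher and 3 lower. Prokr2, a receptor for prokineticins, had 170.3, 156 and 239 in DL, against 4.5, 24.8 and 24.5 in L5 and 29, 64.4 and 37.5 in OMN, 2.22 ± 0.24 (adjusted p = 0.00646) above the mean. Avpr1a, the V1a vasopressin receptor, had 465, 185.5 and 483 in DL, against 30.2, 62.4 and 68.3 in L5 and 31, 52.1 and 47.4 in OMN. Its DL array 2 was the lowest of the 3 yet still above all others, and the difference of 2.53 ± 0.33 (adjusted p = 0.0118) was lost without DL array 1 or 3 (adjusted p up to 0.0579). Avpr1a was named after its values were seen. Hcrtr2, the orexin receptor 2, was at noise on every DL array. It had 334, 179.9 and 210.0 in L5 and 42.4, 60.1 and 108 in OMN, so that DL was at least 12.7-fold lower than L5 and at least 3.55-fold lower than OMN. Tacr1, the receptor for substance P, was lower by a smaller amount, with 125, 114 and 102 in DL, against 273, 318 and 243 in L5 and 300.0, 329 and 252 in OMN, and a difference of -1.21 ± 0.15 (adjusted p = 0.0106) that was lost without DL array 1 (adjusted p = 0.0527). The gene of the ligand, Tac1, was thus higher and that of its receptor lower in the same samples.

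Some transcription factors also set DL apart from both pools. Of 20 genes that mark motor columns and pools, 5 were higher than the mean (Runx1, Tshz1, Tshz2, Ebf1 and Foxp1). Nr2f2 was lower, and the shares over all genes were 1.53% and 1.82%. Of these genes only Runx1, Tshz1 and Nr2f2 were called against both pools. Snai2, a zinc finger repressor of the Snail family known from migrating neural crest, had 501, 1009 and 813 in DL, against 50.2, 24.5 and 17.1 in L5 and 53.1, 14.1 and 9.6 in OMN, a difference of 4.21 ± 0.37 (adjusted p = 0.00297). Hhex, a homeodomain repressor, had 244, 218 and 304 in DL, against 18.3, 26.6 and 12 in L5 and 12.4, 20.2 and 26.1 in OMN. L5 and OMN hovered about the noise level and the DL arrays were close to one another, with a difference of 2.95 ± 0.22 (adjusted p = 0.00156). Runx1, a factor of sensory neurons and of some cervical motor neurons, had 109, 563 and 248 in DL, against 38.9, 28 and 28.6 in L5 and 13.6, 20.1 and 2.9 in OMN. The DL arrays spanned a wide range, and the difference of 2.89 ± 0.39 (adjusted p = 0.0129) was lost without DL array 3 (adjusted p = 0.0628). Tshz1, a teashirt zinc finger gene, had 539, 559 and 538 in DL, against 163, 158.5 and 126 in L5 and 62.5, 116.5 and 105 in OMN, a difference of 2.08 ± 0.20 (adjusted p = 0.00448).

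Nr2f2 encodes the orphan nuclear receptor COUP-TFII. It had 261, 555 and 196 in DL, against 1512.5, 1387 and 1359 in L5 and 3729.8, 3118 and 2930.5 in OMN, and the pools did not overlap. The difference from the mean was -2.74 ± 0.27 (adjusted p = 0.00454), although against both pools the call was lost without any of 5 arrays (adjusted p up to 0.107). Isl1, a LIM homeodomain factor of all motor neurons, had 3127.5, 2725.5 and 2299 in DL, against 495, 550.5 and 749.5 in L5 and 2084, 2127 and 2175.5 in OMN. DL and OMN were close and L5 low, and the call against the mean, 1.25 ± 0.20 (adjusted p = 0.0227), was lost without any array but DL array 3 or L5 array 3 (adjusted p up to 0.0978). Irx5, of the Iroquois family, had 11.4, 18.8 and 5.5 in DL, against 52.9, 72.8 and 66.1 in L5 and 441, 369 and 349 in OMN, with a difference of -2.70 ± 0.19 (adjusted p = 0.00132). It was the one gene of 11 midbrain and oculomotor factors that was lower in DL than in both pools. En2, Otx1, Otx2 and Tbx20 were also lower than the mean, and were high in OMN alone, while with quantile normalization or centred arrays 4 of the 11 were lower in place of 5. Nkx6-1, a homeodomain factor of the same list, was higher than the mean by 1.36 ± 0.28 (adjusted p = 0.0487), with 266, 158 and 539 in DL, against 53, 70.4 and 82.2 in L5 and 100.1, 163 and 196 in OMN, where DL and OMN overlapped.

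Positional genes of the Hox clusters mostly separated DL and L5 from OMN and not DL from both. Groups 8 to 13 had 16 measured genes, of which 8 were higher in DL than the mean. For 7 of these 8 DL did not pass the test against L5, and the OMN arrays of all 8 lay between 0.3 and 20.7. Hoxd11 was the exception, with 2005, 2283.5 and 1753 in DL, against 492, 728 and 894 in L5 and 3.6, 2.4 and 8.8 in OMN. It was 1.53 ± 0.25 (adjusted p = 0.0294) above L5 and at least 109-fold above OMN. The call against L5 was lost without any of 8 arrays (adjusted p up to 0.126). Hoxc10, by contrast, had 3453, 3805 and 3416 in DL, against 3723, 4626 and 3733 in L5 and 19.7, 5.5 and 10.9 in OMN, with -0.17 ± 0.24 between DL and L5. Of 17 genes of groups 1 to 7, 3 were higher, and Hoxa3 exceeded both pools, with 474, 687 and 561 in DL, against 128, 148.5 and 204 in L5 and 2.8, 3.7 and 2.8 in OMN. Only 3 of 4 probe sets of Hoxa3 had that sign.

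Potassium channel genes as a list leaned towards lower levels in DL. Of 59 measured, 4 were higher and 8 lower, and 15 had a positive difference, with a median of -0.36 against -0.06 for all genes. With centred arrays 6 were lower and the median was -0.25. Kcng4, a silent subunit that modifies Kv2 channels, was the channel gene with the greatest loss, with 8.4, 50.1 and 1.8 in DL, against 567, 645.5 and 505 in L5 and 229, 271.5 and 225 in OMN. Of the DL arrays, 2 were at noise and the third remained far below the others, and the difference of -3.66 ± 0.29 (adjusted p = 0.00231) held against both pools under every omission. Kcnv1, another silent subunit that acts on Kv2, went the other way, with 275, 279 and 232 in DL, against 22.9, 26.2 and 24.4 in L5 and 24, 28.4 and 21.8 in OMN. The L5 and OMN arrays lay just above noise, and DL was 2.77 ± 0.15 (adjusted p = 0.000969) above the mean. Kcna6, a Kv1 subunit of axons, had 440.3, 296 and 551 in DL, against 52.8, 34.1 and 65.8 in L5 and 94.2, 67.2 and 58.7 in OMN, higher by 2.51 ± 0.22 (adjusted p = 0.00271). Kcnk3, a leak channel of the TASK family, was lower than the mean with 291.5, 476 and 381.5 in DL, against 1182, 1639.9 and 1692 in L5 and 754, 687 and 740.2 in OMN, a difference of -1.43 ± 0.19 (adjusted p = 0.0117) that was lost without DL array 1 or 3 (adjusted p up to 0.0665).

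Of 35 sodium, calcium and HCN channel genes, 3 were higher (Scn7a, Scn9a and Scn11a) and 2 lower (Scn4b and Fgf13), with a median of -0.02, and with centred arrays 4 were higher. Fgf13, a fibroblast growth factor homologue that binds the inner end of sodium channels, had 770.1, 729 and 752 in DL, against 2219.7, 2298.5 and 2278 in L5 and 1874, 1914 and 1802 in OMN. The arrays of each pool were tight, and the difference was -1.43 ± 0.15 (adjusted p = 0.00537). Lrrc38, an accessory subunit of large-conductance calcium-activated potassium channels, was at or under 1 in DL and had 56.8, 36.4 and 46.1 in L5 and 223, 231 and 232 in OMN. Taken against the noise level, DL was at least 2.5-fold lower than L5 and at least 12.5-fold lower than OMN.

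Receptors for inhibitory and excitatory transmitters changed in single subunits. For GABA and glycine, 4 of 20 receptor genes were higher than the mean (Gabre, Glra1, Glra2 and Glra3) and 2 lower. Of the 4, only Glra3 was called against both pools. Glra1 had 2770, 2631 and 3150 in DL, against 3863.5, 4057.5 and 3226 in L5 and 245, 111 and 128 in OMN. It was thus dimmer in DL than in L5, by -0.38 ± 0.27, which did not pass the test. The glycine receptor subunit gene Glra3 had 159, 214 and 268 in DL, against 52.8, 56.3 and 41 in L5 and 33.2, 56.3 and 53.1 in OMN, and was higher than both pools, 1.81 ± 0.20 (adjusted p = 0.00661) above the mean. Glra2, a subunit of the immature glycine receptor, had 3562, 2645 and 3138 in DL, against 2789, 2089 and 1911 in L5 and 328, 418 and 364 in OMN. It was high in DL and L5 and low in OMN, so that only the comparison with OMN and the mean called it. Of 22 glutamate receptor genes, 1 was higher and 3 lower. The kainate receptor gene Grik1 had 1160.5, 1283 and 756 in DL, against 180.5, 155 and 164 in L5 and 303, 352 and 350.4 in OMN, with 2.06 ± 0.20 (adjusted p = 0.00448) for the difference from the mean. Grm3, a presynaptic and glial metabotropic receptor, had 148.5, 105 and 104 in DL, against 299, 304 and 419 in L5 and 702, 625 and 623 in OMN, and was lower, with a difference of -1.86 ± 0.19 (adjusted p = 0.00537), while its calls against both pools were lost under each omission (adjusted p up to 0.121).

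Among 20 genes of calcium buffers and sensors, 2 were higher and 3 lower, a split that was 3 and 2 with centred arrays. Calb1, the buffer calbindin, had 448.5, 244 and 302 in DL, against 112, 88.4 and 87 in L5 and 48.9, 65.4 and 23.7 in OMN, 2.05 ± 0.25 (adjusted p = 0.00897) above the mean, a call lost without DL array 1 (adjusted p = 0.0555). Pvalb, the buffer parvalbumin, had 694, 846 and 688 in DL, against 541, 745.5 and 905 in L5 and 5169.6, 5394 and 5099.7 in OMN. DL and L5 overlapped and both lay far under OMN, and the difference from the mean was -1.37 ± 0.19 (adjusted p = 0.0131). Cabp7, a calcium-binding protein of the Golgi, was lower than both with 1095.5, 1667 and 1406 in DL, against 4084.5, 3703.5 and 3786 in L5 and 3084.5, 2971 and 2745 in OMN, a difference of -1.29 ± 0.18 (adjusted p = 0.0151) that was lost without DL array 1 or 3, L5 array 1 or OMN array 1 (adjusted p up to 0.0710).

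Genes of the perineuronal net, the matrix that wraps large motor neurons, were lower in DL in its link proteins. Hapln1 and Hapln4 encode the proteins that tie hyaluronan to chondroitin sulphate proteoglycans. Hapln1 had 223, 279.8 and 359.8 in DL, against 2041, 1833.5 and 1401 in L5 and 2278, 1964 and 2048 in OMN. The brightest DL array was several times dimmer than the dimmest of the other 6, all 4 of its probe sets were called lower, and the difference was -2.69 ± 0.22 (adjusted p = 0.00244). Hapln4 had 131.5, 101 and 257 in DL, against 1014, 1066 and 841 in L5 and 720.5, 706 and 690.2 in OMN, a difference of -2.33 ± 0.27 (adjusted p = 0.00747) that was lost without DL array 1 (adjusted p = 0.0511).

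The net's proteoglycans aggrecan, brevican and neurocan and its glycoprotein tenascin R did not pass the test. Acan, the gene of aggrecan, had 48.1, 126 and 247 in DL, against 548, 468 and 511 in L5 and 239, 239 and 281.5 in OMN, a difference of -1.49 ± 0.34 (adjusted p = 0.0651). Bcan, Ncan and Tnr had adjusted p of 0.828, 0.716 and 0.513. These 4 genes were named after their values were seen. Over the 41 matrix and net genes of the list, 3 were higher and 5 lower, with a median of -0.14, and with quantile normalization 2 were higher. Of the markers of other cells, the summed neuron markers were 67704 to 84457 in DL, against 99704 to 107840 in L5 and 74853 to 78834 in OMN. The part of that difference in the matrix genes was not tested.

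The 250 bases upstream of Hapln1 are shown as those of the net gene with the firmest call, read from chr13:89540386-89540635 on the plus strand of GRCm38.p6 in RefSeq, with 1 RUNX match in capitals.
Hapln1: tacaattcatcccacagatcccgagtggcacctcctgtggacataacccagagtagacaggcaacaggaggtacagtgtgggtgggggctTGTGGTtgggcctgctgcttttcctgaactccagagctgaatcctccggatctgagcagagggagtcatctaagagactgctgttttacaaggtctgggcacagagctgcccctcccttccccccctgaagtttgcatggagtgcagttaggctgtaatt

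**Figure D3:**
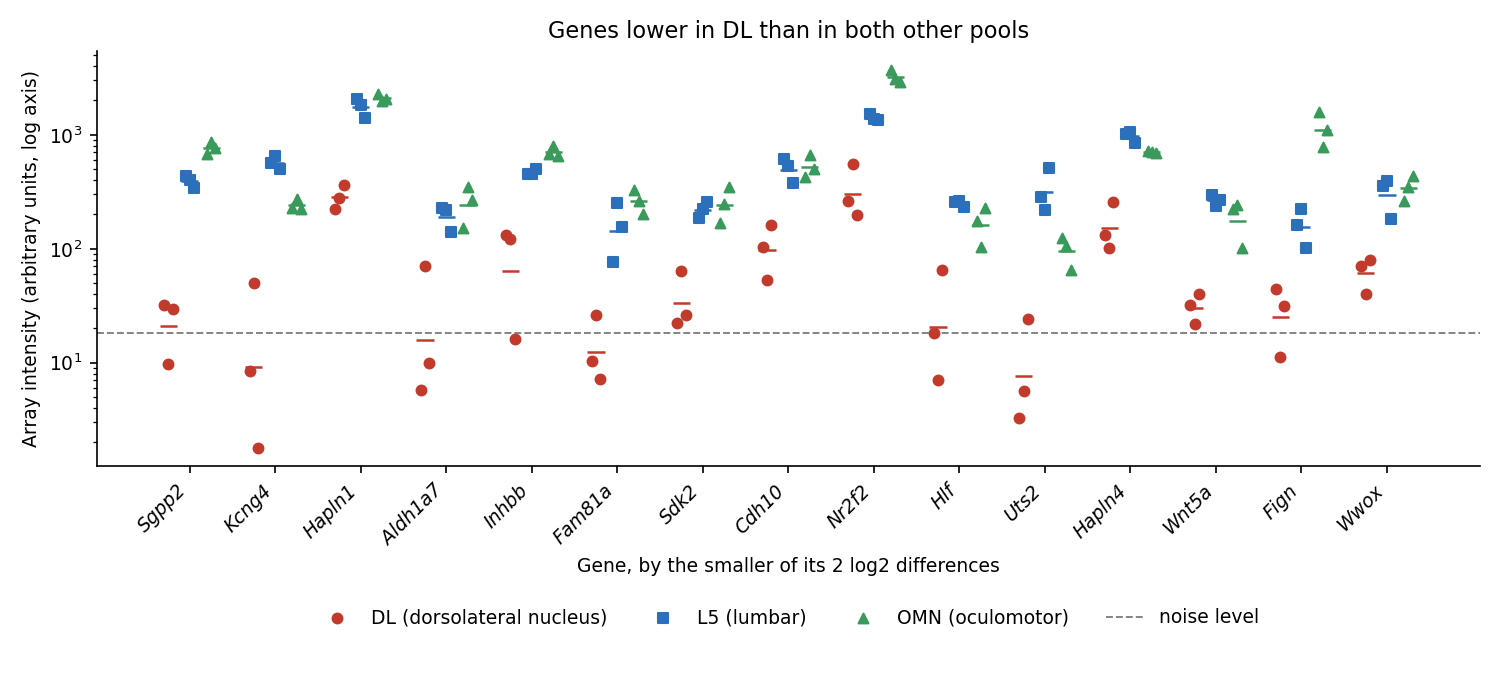
Intensities of 15 genes lower in DL than in both pools (log axis), ordered by the smaller of the log2 differences from L5 and OMN, with 3 arrays per pool, a bar at each pool's geometric mean and the noise level of 18.3 as a dashed line. All 3 DL arrays lie below all 6 L5 and OMN arrays in every gene shown, and several lie under the noise level. Over all genes they lie below in 4.85%, and the genes shown were chosen on these same arrays.

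Markers of motor neuron subtypes were lower in DL than the mean where they were called at all. Of 6 fast and alpha motor neuron markers, 2 were lower, and of 9 slow and gamma markers, 3. With centred arrays 1 of the 6 was lower. Mmp9, a matrix metalloproteinase of fast limb motor neurons, had 135, 19.1 and 50.3 in DL, against 771, 609 and 539 in L5 and 95.1, 83.7 and 104 in OMN. L5 was high, whereas DL and OMN overlapped, and the call against the mean, -1.92 ± 0.33 (adjusted p = 0.0272), was lost without any array but DL array 1 or OMN array 1 (adjusted p up to 0.0953). Esrrg, an orphan nuclear receptor that marks gamma motor neurons, had 719.5, 902 and 464 in DL, against 1931, 1572 and 1814 in L5 and 2695, 2278 and 2712 in OMN. It was lower than both pools, with a difference of -1.64 ± 0.23 (adjusted p = 0.0142) from the mean, a call lost without DL array 1 or L5 array 1 (adjusted p up to 0.0717). Lhx4, a LIM factor of developing motor neurons, had 59.6, 59.9 and 214 in DL, against 383, 322 and 291 in L5 and 1609.9, 1458 and 1369 in OMN, with a difference of -2.71 ± 0.35 (adjusted p = 0.0111) from the mean, lost without DL array 1 or 2 (adjusted p up to 0.0576), and no call against L5 (adjusted p = 0.0837).

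Of 38 neurotrophic factor and receptor genes, 4 were higher and 2 lower. Bdnf encodes brain-derived neurotrophic factor and had 449, 332.5 and 246 in DL, against 101, 42.5 and 44 in L5 and 56.5, 40.9 and 46 in OMN. Ngfr encodes the low-affinity neurotrophin receptor p75, which falls in motor neurons after birth and returns on injury, and had 843, 947 and 1364 in DL, against 113, 128 and 249 in L5 and 252, 266 and 264 in OMN. For both genes the pools did not overlap, and the differences of 2.34 ± 0.20 (adjusted p = 0.00252) and 2.27 ± 0.20 (adjusted p = 0.00307) held against both pools under every omission. With quantile normalization 5 genes of the list were higher, and with centred arrays 6. None of 24 immediate early and injury genes was called, and 2 of them had an unadjusted p under 0.05. That is close to what the 3.36% called over all genes gives, and nothing is read from it about injury.

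Axon guidance and adhesion genes changed in small numbers. Of 72 guidance genes, 4 were higher and 5 lower, and of 54 cadherins and other adhesion genes, 2 were higher and 4 lower. With centred arrays these counts were 6 and 3, and 5 and 4. The netrin receptor gene Dcc had 1119.8, 1136 and 925 in DL, against 381.5, 256 and 409 in L5 and 382, 413 and 338.5 in OMN, and was higher by 1.51 ± 0.21 (adjusted p = 0.0126), a call lost without DL array 1 or 2 (adjusted p up to 0.0662). The ephrin receptor gene Epha6 was at 16.4 to 18.4 in DL and had 93.9, 91.3 and 68.3 in L5 and 490.2, 441 and 584 in OMN, a difference of -2.77 ± 0.18 (adjusted p = 0.00113). Tenm2, a teneurin of synaptic contacts, had 308, 402 and 164 in DL, against 1135, 1158 and 1006 in L5 and 1338, 1633 and 1689 in OMN, lower, with a difference of -2.19 ± 0.24 (adjusted p = 0.00661). Of its 4 probe sets, 3 had that sign. Kirrel3, a synaptic adhesion protein of the immunoglobulin family, had 2469, 2988 and 2111 in DL, against 904, 735 and 752 in L5 and 799, 929 and 933 in OMN, higher by 1.56 ± 0.18 (adjusted p = 0.00805), though 1 of its 3 probe sets had the opposite sign.

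Of 53 genes of the Wnt, TGF-beta and Notch pathways, 2 were higher and 5 lower. Wnt5a, a ligand of non-canonical Wnt signalling, had 32.1, 22 and 39.8 in DL, against 296, 236 and 270.1 in L5 and 223, 244 and 101 in OMN. The DL arrays were close to noise and well below the others, with a difference of -2.32 ± 0.28 (adjusted p = 0.00918) that was lost without DL array 1 (adjusted p = 0.0569). Inhbb, a subunit of activin B, had 131, 123 and 16.1 in DL, against 453, 449 and 497 in L5 and 677, 799.6 and 649.6 in OMN. DL array 3 was at noise and the other 2 were not, and the difference of -2.76 ± 0.40 (adjusted p = 0.017) was lost without OMN array 2 (adjusted p = 0.0528). Gdf10, a TGF-beta family ligand, was higher, with 44.3, 155 and 184 in DL and every L5 and OMN array at or under the noise level, which made DL at least 5.91-fold higher than each.

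In several broad programmes the number of called genes was close to what the 3.36% called over all genes gives, and nothing is read from it about these programmes. By limma, no gene was called among 23 of inherited ALS, 25 of the unfolded protein response and 54 of oxidative phosphorylation. Their counts at an unadjusted p under 0.05 were 2, 5 and 1. The oxidative phosphorylation genes had a median difference of -0.21 and 5 had a positive sign, and with centred arrays the median was -0.09 and 14 were positive. Of 28 heat shock and chaperone genes, Hspa1b was lower, with a difference of -1.58 ± 0.32 (adjusted p = 0.0467), a call that quantile normalization did not give. Of 20 steroid receptor and enzyme genes, Hsd17b2, which inactivates sex steroids, was lower than the mean with 0.7, 56 and 25.3 in DL, against 597, 721 and 800.4 in L5 and 4.6, 10.1 and 76.7 in OMN, with L5 high and DL and OMN both low. With quantile normalization none of the 20 was called, and with centred arrays 1 was higher and none lower.

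**Figure D4:**
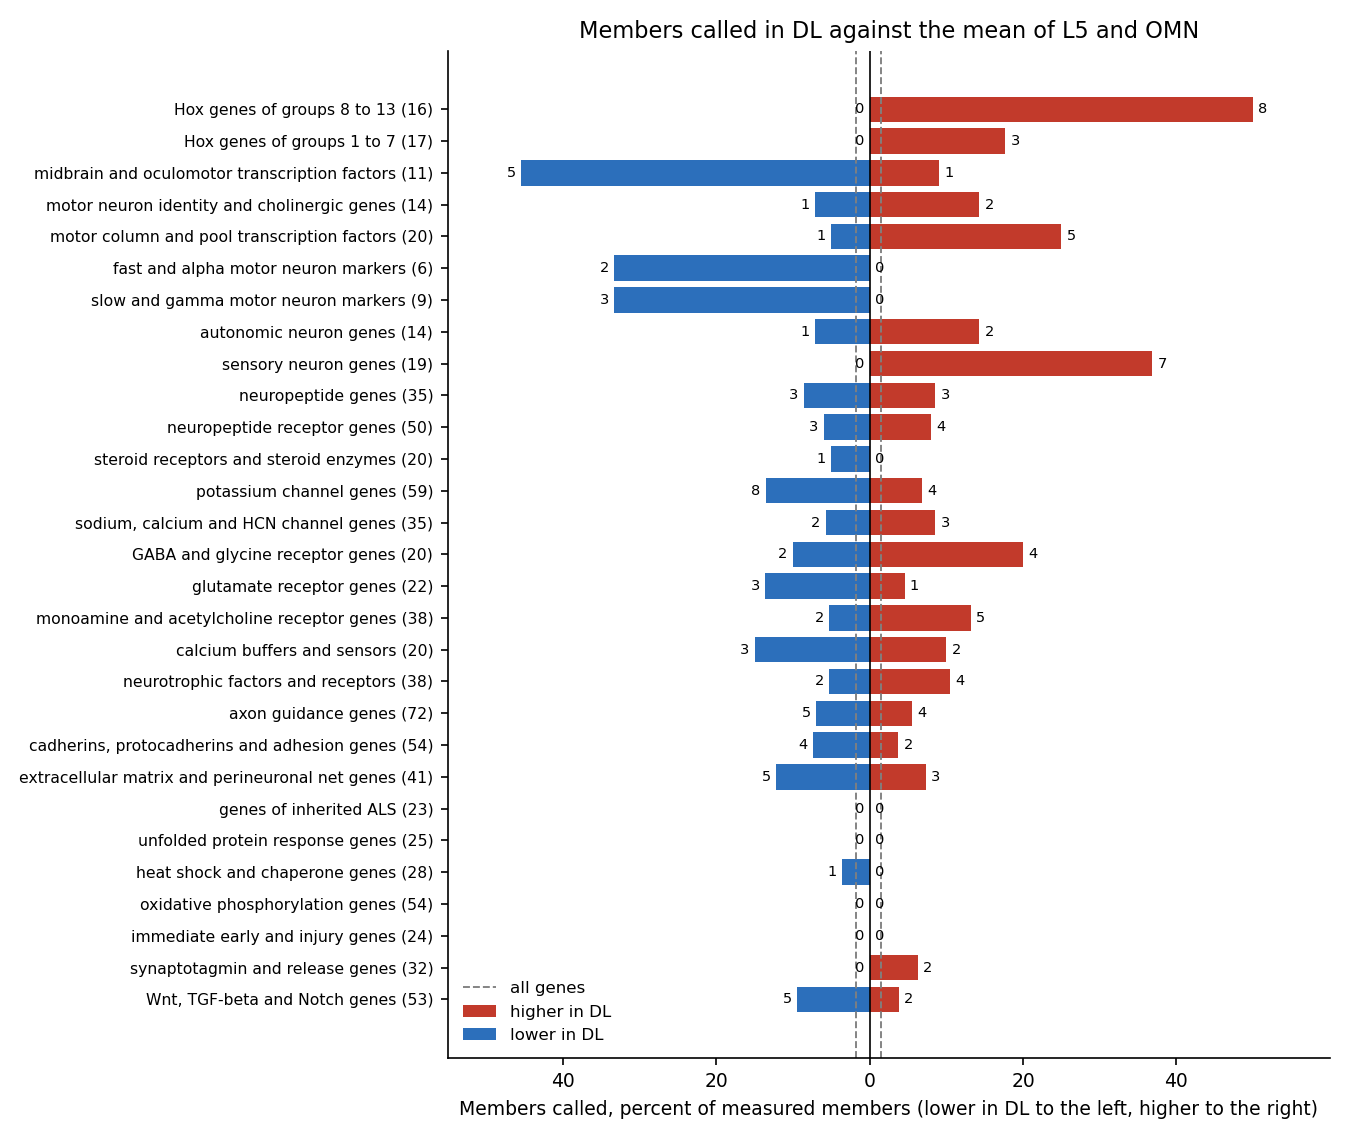
Share of measured members of each gene list, cell type markers aside, that was called in DL against the mean of L5 and OMN, in percent, with genes lower in DL to the left and genes higher to the right. The number of genes stands at each bar, list sizes are in parentheses and dashed lines mark all genes (1.82% lower, 1.53% higher), with the greatest share on the right for the Hox genes of groups 8 to 13 and on the left for midbrain and oculomotor factors.

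Markers of cells that surround motor neurons differed as well. Of 13 oligodendrocyte markers, 3 were higher in DL (Cldn11, Ermn and Ugt8a), 11 had an unadjusted p under 0.05 and the median difference was 0.77. Their summed intensity was 24967 to 27270.0 in DL, against 18550 to 19660 in L5 and 15500 to 17189 in OMN, with no overlap. Cldn11, the tight junction protein of myelin, had 1607, 2141 and 2289 in DL, against 872, 852.5 and 918.5 in L5 and 803, 896 and 902 in OMN. All 3 calls were lost without DL array 2 or 3, and that of Ugt8a also without DL array 1 and that of Ermn without L5 array 1 or OMN array 2 (adjusted p up to 0.0683), and with centred arrays 5 of the 13 were higher.

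Of 6 inhibitory interneuron markers, 3 were higher than the mean (Gad2, Slc32a1 and Slc6a5), with a median of 1.24 over the 6. None of the 3 was called against both pools. For Slc6a5 the smaller of the differences from L5 and OMN was 0.30 in size. The 6 markers summed to 5020 to 5886 in DL, against 1631 to 2268 in L5 and 1913 to 2693 in OMN. Gad2 was a large part of the DL sums. Gad2, a GABA-synthesising enzyme, had 2725, 2212.5 and 2083 in DL, against 288, 267 and 251 in L5 and 1209, 1443 and 1285 in OMN. DL was 3.04 ± 0.19 above L5 and 0.82 ± 0.19 above OMN (adjusted p = 0.0786). The glutamate transporter gene Slc17a6, an excitatory marker that motor neurons also use, was lower than both pools, with 285, 177 and 143.5 in DL, against 502, 479 and 389 in L5 and 1219, 1183 and 968 in OMN. Slc17a7, Lmx1b, Lbx1 and Barhl1 of the same list were at noise on all DL arrays.

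Gfap, a filament of astrocytes, had 1073.5, 2333 and 1243 in DL, against 392, 351 and 233 in L5 and 12.2, 19.1 and 22.7 in OMN. DL was 2.14 ± 0.31 (adjusted p = 0.0185) above L5 and 5.45 ± 0.31 above OMN, and the call against both pools was lost without any of 4 arrays (adjusted p up to 0.107). The 14 astrocyte markers as a whole summed to 22538 to 25393 in DL, against 27169 to 29885 in L5 and 23024 to 23844 in OMN, and Slc7a10 among them was lower in DL. Vascular markers summed to 4457 to 5167 in DL, against 2904 to 3524 in L5 and 3573 to 4305 in OMN, and none of the 13 was called, with 3 at an unadjusted p under 0.05. None of 12 microglia, 6 oligodendrocyte precursor and 8 meningeal markers was called, with 3, 2 and 1 at an unadjusted p under 0.05. With 3.36% called over all genes, the absence of calls in such short lists says little. Their median differences were -0.46, -0.36 and -0.02, against -0.06 for all genes, and 1 of the 12 microglia markers had a positive difference.

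**Figure D5:**
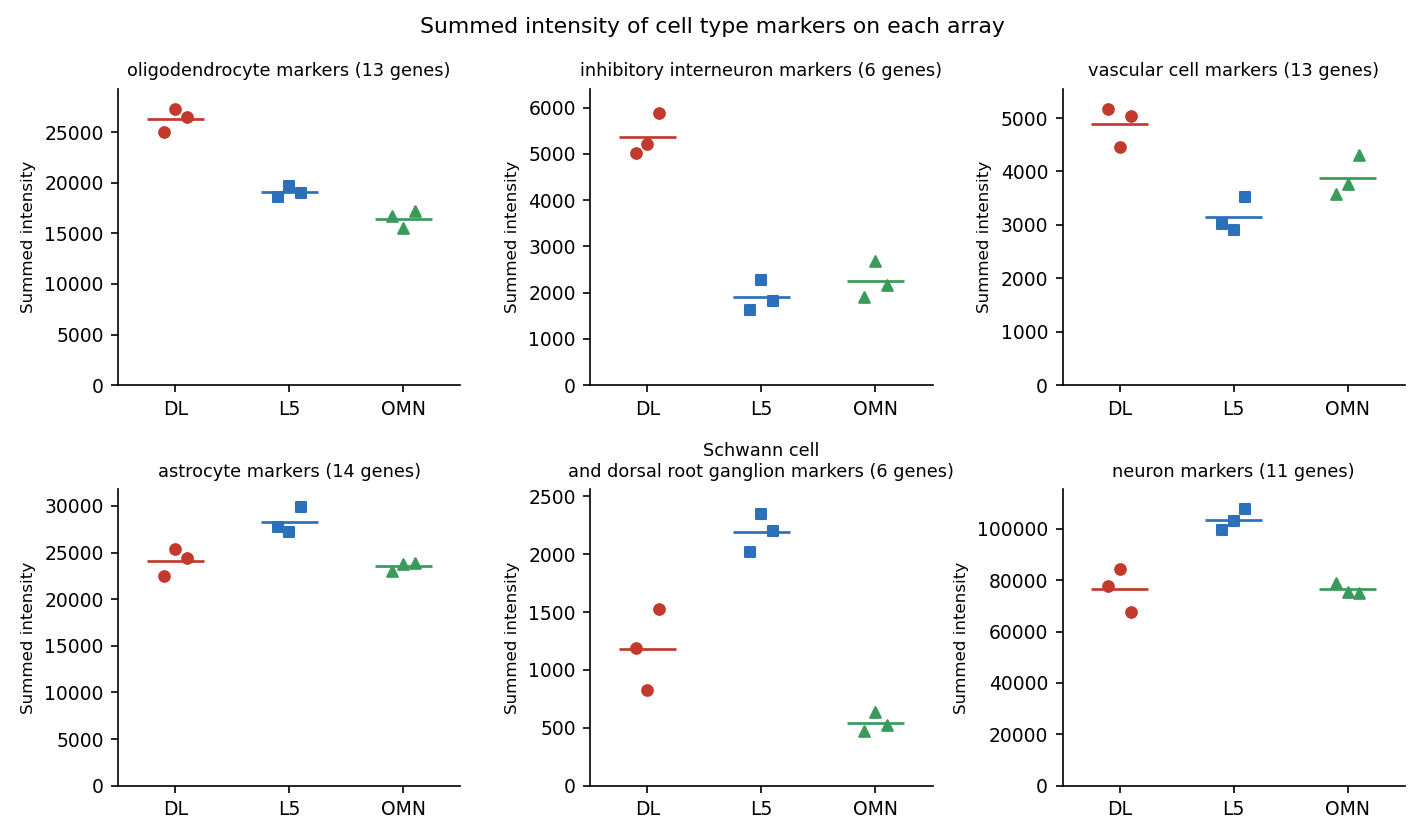
Summed intensity of the markers of 6 cell types on each array, with DL, L5 and OMN from left to right, 3 points per pool and a bar at the mean. Oligodendrocyte, inhibitory interneuron and vascular sums are higher on all 3 DL arrays than on any other array, the astrocyte and neuron sums are not, and the Schwann and ganglion sum is highest in L5. Most of that L5 sum is the gene Pmp22.

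Some of the widest differences fell in genes outside these lists. Gcnt2 encodes an enzyme that branches the sugar chains of the I blood group antigen and had 1952, 1301.5 and 1593 in DL, against 47, 75.5 and 178 in L5 and 99.4, 60.1 and 78.7 in OMN, a difference of 4.03 ± 0.33 (adjusted p = 0.00242). Of its 8 probe sets, 7 had that sign. Mpped2, a metallophosphoesterase, had 2417.5, 3466 and 2733 in DL, against 279, 223.5 and 188 in L5 and 324, 271 and 353 in OMN. The dimmest DL array was well above the brightest of the others, and the difference was 3.33 ± 0.21 (adjusted p = 0.000969). Ccdc172, a coiled-coil protein, was at noise in L5 and OMN, with 105, 171.5 and 205 in DL, at least 8.43-fold higher. Tent5a, a cytoplasmic poly(A) polymerase, had 539, 922 and 504 in DL, against 61.1, 61.3 and 22.5 in L5 and 90.5, 62.4 and 78.9 in OMN, higher by 3.10 ± 0.27 (adjusted p = 0.00271). Fibin, a secreted factor first described in fin and limb buds, had 172, 319 and 222 in DL, against 11.3, 33.1 and 1.6 in L5 and 15.4, 3.4 and 6.3 in OMN, higher by 3.24 ± 0.32 (adjusted p = 0.00454).

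Among the lower genes outside the lists, Sgpp2, a phosphatase of sphingosine 1-phosphate, had 31.8, 9.8 and 29.8 in DL, against 438, 401 and 339.7 in L5 and 684, 858 and 765 in OMN. Its difference of -3.88 ± 0.24 (adjusted p = 0.000969) was the widest of those called lower than both pools. Fign, a microtubule-severing enzyme, had 44.5, 11.2 and 31.2 in DL, against 162, 222 and 102 in L5 and 1581, 777 and 1098 in OMN, with OMN far above L5 and L5 above DL, a difference of -3.36 ± 0.31 (adjusted p = 0.00373). Gpr39, a zinc-sensing receptor, had 40.7, 44.2 and 99.4 in DL, against 244, 232 and 309 in L5 and 707, 808.5 and 886 in OMN, lower, with a difference of -2.69 ± 0.19 (adjusted p = 0.00132). Sdk2, an adhesion protein of synaptic layers, had 22.2, 63.8 and 26.1 in DL, against 184.5, 221 and 257 in L5 and 168, 245 and 349 in OMN, lower, with a difference of -2.29 ± 0.25 (adjusted p = 0.00646). Aldh1a7, whose sequence is close to that of Aldh1a1, so that the probe set may not tell them apart, had 5.8, 70.4 and 9.9 in DL, against 228, 217 and 141 in L5 and 152, 347 and 267 in OMN.

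A further set of genes called against both pools was named after their values were seen. Cbln4, a secreted synapse organiser, had 1459.7, 1268 and 1226 in DL, against 196, 211 and 206 in L5 and 310.4, 463 and 345 in OMN. Cadps2, a priming factor of dense-core vesicles, had 1636, 1332 and 1214 in DL, against 462, 349.7 and 331 in L5 and 489, 405.5 and 342 in OMN. Rtn4rl1, a Nogo receptor homologue, had 1011, 884 and 901 in DL, against 93.5, 98.2 and 93 in L5 and 207, 287 and 201 in OMN. All 3 genes were higher than both pools under every omission of 1 array, with differences from the mean of 2.19 ± 0.18, 1.78 ± 0.15 and 2.52 ± 0.17. Pou4f3, a POU factor of hair cells and sensory neurons, had 76.5, 142 and 106 in DL and was at noise in L5 and OMN, at least 5.73-fold higher. Nfib, a nuclear factor I gene, had 365, 530.0 and 636 in DL, against 2247, 2092 and 2579.5 in L5 and 1500.0, 1659.6 and 1577 in OMN. Maf, a bZIP factor, had 409, 233.5 and 317 in DL, against 1034, 732 and 851 in L5 and 1859, 2074 and 2048 in OMN. Both were lower, with differences of -1.90 ± 0.19 and -2.02 ± 0.19, and all 7 probe sets of Nfib and all 6 of Maf had that sign. Lypd1 and Lypd6, which encode membrane-anchored modulators of nicotinic receptors, were lower too. Lypd1 had 348, 749 and 669.9 in DL, against 2193, 2345 and 1861 in L5 and 5228, 4512 and 4646 in OMN. Lypd6 had 181, 159.9 and 147 in DL, against 1179.6, 1012.5 and 1037 in L5 and 295, 453 and 406 in OMN. Their differences from the mean were -2.48 ± 0.25 and -1.88 ± 0.20.

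Some called genes sat next to each other in the RefSeq gene order. Of 18122 pairs of measured direct neighbours, 14 had both genes higher in DL than the mean and 19 both lower. How many such pairs a random gene order would give was not computed. The higher pairs included those joining Chrna5, Chrna3 and Chrnb4, Scn9a and Scn7a, Hoxd11, Hoxd10 and Hoxd9, and Hoxa9, Hoxa10 and Hoxa11. The lower pairs included a run of 5 genes, Irx3, Crnde, Irx5, Irx6 and Mmp2, as well as Gpr39 with Lypd1 and Wwox with Maf. The Hox, Irx, nicotinic receptor and sodium channel genes named here belong to gene families, whose members share sequence. Crnde and Mmp2 are not Irx genes. The part of shared sequence in these calls was not tested.

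In 6 genes DL lay between the other pools and was called against each in opposite directions (0.033% of all genes), and none of these was called against the mean. Aldh1a2, which makes retinoic acid, had 256, 129.9 and 235 in DL, against 2512.5, 2535 and 1806 in L5 and 8.4, 34.5 and 5.3 in OMN, between a high L5 and an OMN near noise. Cartpt, the gene of the CART peptide, had 762, 596 and 497 in DL, against 78.9, 78.4 and 84 in L5 and 3207, 3930.3 and 1778 in OMN, between a low L5 and a high OMN. Pmp22 and Ecrg4 followed the order of Aldh1a2, and Rxrg and Zfhx3 that of Cartpt. Rxrg, a retinoid X receptor gene, had 96, 97.4 and 95 in DL, against 13.7, 26.7 and 21.3 in L5 and 511, 269 and 396 in OMN.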

How the data were processed

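Per the labels, laser-captured motor neurons of DL, L5 and OMN (3 arrays each) were hybridised after amplification of at least 1.5 ng of RNA. The authors deposited 1 intensity for each of 45101 probe sets per array, on a linear scale with each array's trimmed mean at 250.0. Which software made these values is not stated in the sources used here. Control probe sets (64) and those naming several genes (932) or none (9160) in the platform annotation were left out. A gene was its probe set with the highest mean log2 value, which left 18193 genes, 9010 of them with several probe sets. Of the called genes with several probe sets, all had the same sign in 121 of 169 higher and 168 of 209 lower genes. At least 2 probe sets were called with that sign in 48 of the higher and 46 of the lower genes. Where a gene's other probe sets are not mentioned, they need not all share its sign. The noise level of 18.3, the highest of 27 bacterial controls that were not spiked in, was chosen after the values were seen. Where all 3 arrays of a pool lay at or under it, a fold is a lower bound.

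limma 3.58.1 in R 4.3.3 was fitted to log2(intensity + 16) of all 9 arrays, with pool and replicate number as terms, on 4 residual degrees of freedom. P-values are two-sided and adjusted by Benjamini-Hochberg over 18193 genes. The log scale understates changes of dim genes, and the number of arrays limits the precision. On simulated data for DL against the mean of L5 and OMN, over 18193 genes, 27% of planted log2 differences of 1, 84% of 2 and 96% of 3 were recovered, with 6.4% of calls false. The simulated noise was independent, with 1 spread per gene for all pools, and L5 and OMN did not differ. Differences were planted only in brighter genes. The wider spread and the Gapdh ratios of the DL arrays were not simulated, so these shares need not hold for the calls above.

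The 41 gene lists, with 929 of 1025 symbols matched, and the members were chosen with earlier results of these data known. Genes named were the 15 largest called differences in each direction, the 15 each way for which the lesser of the differences from L5 and OMN was largest, up to 4 of each list by p, and a motor neuron panel, and others are said to have been named after their values were seen, including members of a list given where it is counted. Python 3.11.15, numpy 2.4.6, pandas 2.3.3 and matplotlib 3.10.9 were used. Some genes are not analysed here.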

Additional observations from a re-analysis of the deposited data

How the results depend on the processing

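Of the 611 genes called against the mean and the 172 called against both pools, a pseudocount of 1 gave 148 and 29, and one of 64 gave 861 and 277. Variances with trend and robust estimation gave 1026 and 334, and array weights 390 and 127. The Gapdh ratio as a covariate with the replicate block gave 124 and 45, and without the block, an alternative added after the data were seen, 573 and 226. Leaving out single arrays gave 165 to 295 and 36 to 109. Without DL arrays 1 and 3 both counts were 0, with 2968 genes at an unadjusted p under 0.05 in limma. Fits of each pair of pools alone gave 11 genes different from both, 9 higher and 2 lower. Quantile normalization, centred arrays, a filter on dim genes and the mean of all probe sets kept both counts within 1.5 times. The cause of these changes was not tested.

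Without the replicate block 867 and 269 genes were called. Deviations of arrays with the same number correlated at -0.0735 to 0.0617, so the numbers were not seen to pair the arrays. Of 182 genes named by the rule, 112 were called against the mean. Of these, 35 kept the call in each alternative with more than 1 DL array, 57 when any single array was left out, and 0 changed sign in any alternative. Some calls were kept under every single omission but lost in another alternative with more than 1 DL array. They were those of Fam81a, Fgf13, Fibin, Gal, Gdf10, Glra1, Glra2, Glra3, Grik1, Grm3, Hcrtr2, Kcna6, Kirrel3, Pcdh18, Pirt, Prokr2, Sdk2, Sema3e, Slc6a5, Tenm2, Tshz1 and Uts2. Genes named outside the rule were followed 1 by 1 only through the omissions.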
